A study of Mus musculus with 4 samples.

Results

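Hif1a and 8 genes of the glycolytic pathway were examined in the response of mouse cardiac endothelium to bacterial lipopolysaccharide (LPS). The 9 genes are Hif1a, Ldha, Ldhb, Aldoa, Pfkfb3, Pkm, Eno3, Pgam1 and Pgk1. They are 9 of 11138 genes measured, and each was measured by 1 oligonucleotide printed in 2 spots, found by its gene symbol in the platform annotation. The genes were chosen by their measured LPS over saline ratios, since each was at least 2-fold on both arrays of 4 h or of 24 h, so their ratios are given as a description with no test.

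Cardiac endothelium, the cells that line the vessels of the heart, was taken from mice injected intraperitoneally with LPS and from mice injected with saline, at 4 h and at 24 h. Amplified RNA of both groups was hybridised together on long oligonucleotide arrays, with LPS RNA in Cy5 on replicate 1 of each time and in Cy3 on replicate 2. The labels describe replicate 2 as a dye reversal and name no separate animals or extracts for it, so the 2 arrays of a time counted as 1 replicate. The sources used here give no strain, sex, age, LPS dose, number of animals or method of isolation, and do not state whether the saline RNA of 4 h and of 24 h was the same.

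Values are log2 LPS over saline ratios, in which 1 unit is a 2-fold difference. A value after ± is the SD over the pair of arrays of a time (n = 2). It is read as array and dye error and not as spread between animals, since no separate animals are named for the pair. The sign of replicate 2 was turned. The deposited table does not state which dye was the numerator. The direction given is therefore the likely one, resting on the labelled dyes, and is not settled. The opposite signs of the paired arrays bear on the turning of replicate 2 and not on the direction. Over all spots the deposited values of the 2 arrays correlated at only -0.056 at 4 h and -0.064 at 24 h. A narrower set held oligonucleotides whose 2 spots lay within 0.5 log2 units on both arrays. Any with a ratio of exactly 1 on either array were left out of it. For 4 h this set had 5023 members and a correlation of -0.37. For 24 h it had 3668 members and a correlation of -0.50. With all signs turned, every higher value would read lower. The table holds no signal levels, so neither the presence of endothelial markers nor the strength of any spot could be checked, and fewer cells of a type cannot be told apart from less RNA per cell.

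Hif1a encodes the oxygen-regulated subunit of hypoxia-inducible factor 1 (HIF-1). When oxygen is ample, prolyl hydroxylases mark the protein for destruction through the von Hippel-Lindau ubiquitin ligase. When oxygen is scarce, or during inflammatory signalling, it accumulates, pairs with Arnt and binds DNA upstream of many genes, glycolytic enzymes among them. Glycolysis splits glucose to pyruvate in the cytosol, and lactate dehydrogenase turns pyruvate to lactate. Endothelial cells are known to draw much of their ATP from glycolysis, with Pfkfb3 as an activator of its committed step.

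The promoter windows of the genes were read from RefSeq for assembly GRCm38.p6, as 250 bases before to 50 bases after each annotated start. All 9 genes matched by symbol, with 14 windows in all, because Ldha, Pfkfb3 and Pkm have 2 starts and Aldoa has 3, of which the last pair overlap. The HIF-1 core motif was searched as ACGTG or GCGTG on both strands. The first form lies within the E-box CACGTG, which other factors bind, so the 2 motifs overlap. The core was found in 12 of the 14 windows, and in 43.8% of all 32851 windows of the table. The form ACGTG was found in 9 of the 14 windows and in 19.6% of all, and CACGTG in 3 of the 14 and in 7.15% of all. The overlapping Aldoa windows hold the same match, which is counted in each. The 9 genes come from a list of hypoxia and glycolysis genes, so nothing is read from their shares against all windows. A match is a description of these letters and not a binding site.

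Windows of 4 genes are printed, since Hif1a was the gene higher at both times, Ldha and Ldhb are isoenzymes with opposite signs, and Pgk1 was higher at 24 h from a single annotated start. Capitals mark the core motif on either strand, and each window is the most upstream of its gene, written 5′ to 3′ on the gene's strand. Hif1a lies at chr12:73907617-73907916 (plus strand), Ldha at chr7:46845554-46845853 (plus strand), Ldhb at chr6:142507908-142508207 (minus strand) and Pgk1 at chrX:106186850-106187149 (plus strand).
Hif1a: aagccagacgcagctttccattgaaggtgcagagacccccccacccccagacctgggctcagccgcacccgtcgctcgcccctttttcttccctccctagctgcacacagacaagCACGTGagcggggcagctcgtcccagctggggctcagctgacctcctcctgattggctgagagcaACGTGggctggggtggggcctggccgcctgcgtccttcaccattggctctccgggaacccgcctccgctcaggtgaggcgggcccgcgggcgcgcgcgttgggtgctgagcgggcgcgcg
Ldha: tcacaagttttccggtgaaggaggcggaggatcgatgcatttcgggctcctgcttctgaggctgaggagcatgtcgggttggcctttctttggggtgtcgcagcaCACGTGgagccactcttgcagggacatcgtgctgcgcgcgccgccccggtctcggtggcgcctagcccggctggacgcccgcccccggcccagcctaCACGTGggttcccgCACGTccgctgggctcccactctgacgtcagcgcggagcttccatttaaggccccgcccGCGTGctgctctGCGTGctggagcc
Ldhb: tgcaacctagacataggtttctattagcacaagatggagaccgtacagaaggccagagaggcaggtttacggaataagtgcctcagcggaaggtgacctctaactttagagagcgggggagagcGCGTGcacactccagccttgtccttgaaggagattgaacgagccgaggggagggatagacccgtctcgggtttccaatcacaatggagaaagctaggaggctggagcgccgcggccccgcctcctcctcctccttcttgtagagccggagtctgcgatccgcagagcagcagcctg
Pgk1: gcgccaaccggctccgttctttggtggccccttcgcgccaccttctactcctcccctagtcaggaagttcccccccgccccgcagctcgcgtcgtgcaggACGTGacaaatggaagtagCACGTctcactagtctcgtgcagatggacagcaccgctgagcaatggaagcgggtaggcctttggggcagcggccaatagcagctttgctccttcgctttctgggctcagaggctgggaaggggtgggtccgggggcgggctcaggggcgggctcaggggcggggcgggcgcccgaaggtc
The Ldha window held 7 matches in 5 separate stretches, with 2 E-boxes, the most among the 14 windows. The Hif1a window held 3 matches in 2 stretches, of which the upstream stretch is an E-box. The Ldhb window held 1 match, of the GCGTG form, and the Pgk1 window 2, both of the ACGTG form on opposite strands. The 2 windows with 0 matches were the most upstream windows of Aldoa and of Pkm, whose other windows held ACGTG.

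**Figure D1:**
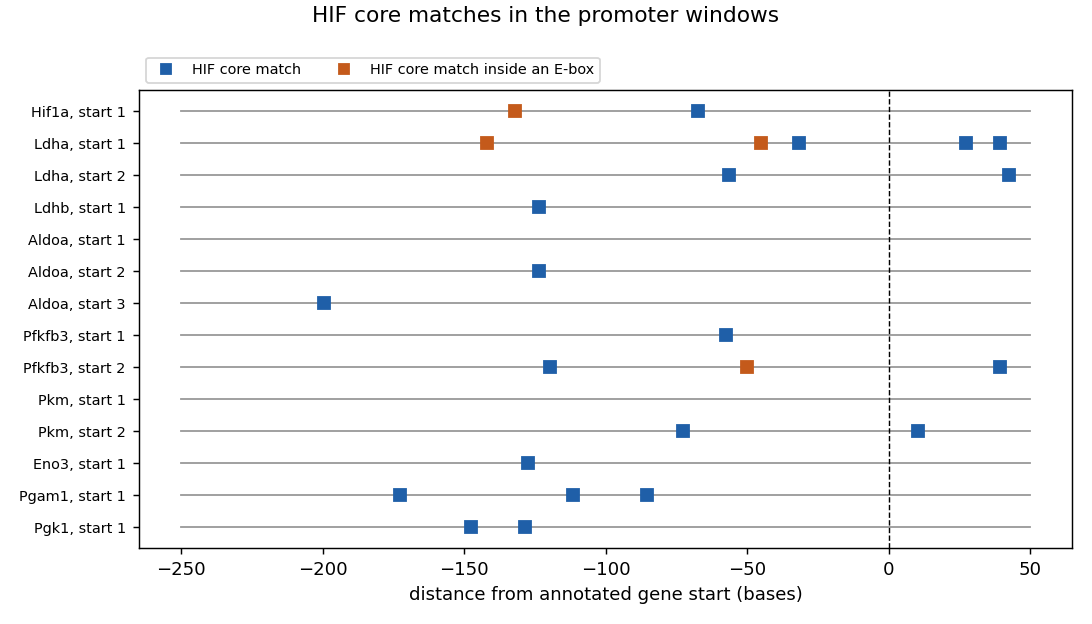
Positions of the HIF-1 core motif in the 14 promoter windows of the 9 genes, in bases from the annotated start (dashed line), with starts numbered from the most upstream. Blue squares are core matches and orange squares are core matches that lie in an E-box, which were found for Hif1a, Ldha and Pfkfb3.

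A gene was called higher or lower at a time where both arrays lay at least 1 log2 unit from 0 on the same side. At 4 h, 3 of the 9 genes were called higher, Hif1a, Ldha and Aldoa, and 0 lower, where 2.25% of all genes were called higher and 0.997% lower. At 24 h, 6 were called higher, Hif1a, Pfkfb3, Pkm, Eno3, Pgam1 and Pgk1, and Ldhb was called lower, where 3.48% of all genes were called higher and 3.52% lower. Beside the 362 genes called at 4 h and 780 at 24 h, 158 and 411 were 2-fold on both arrays with opposite signs. Since the choice of the 9 genes used these ratios, nothing is read from their counts against these shares. Hif1a was the 1 gene of the 9 called at both times.

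**Figure D2:**
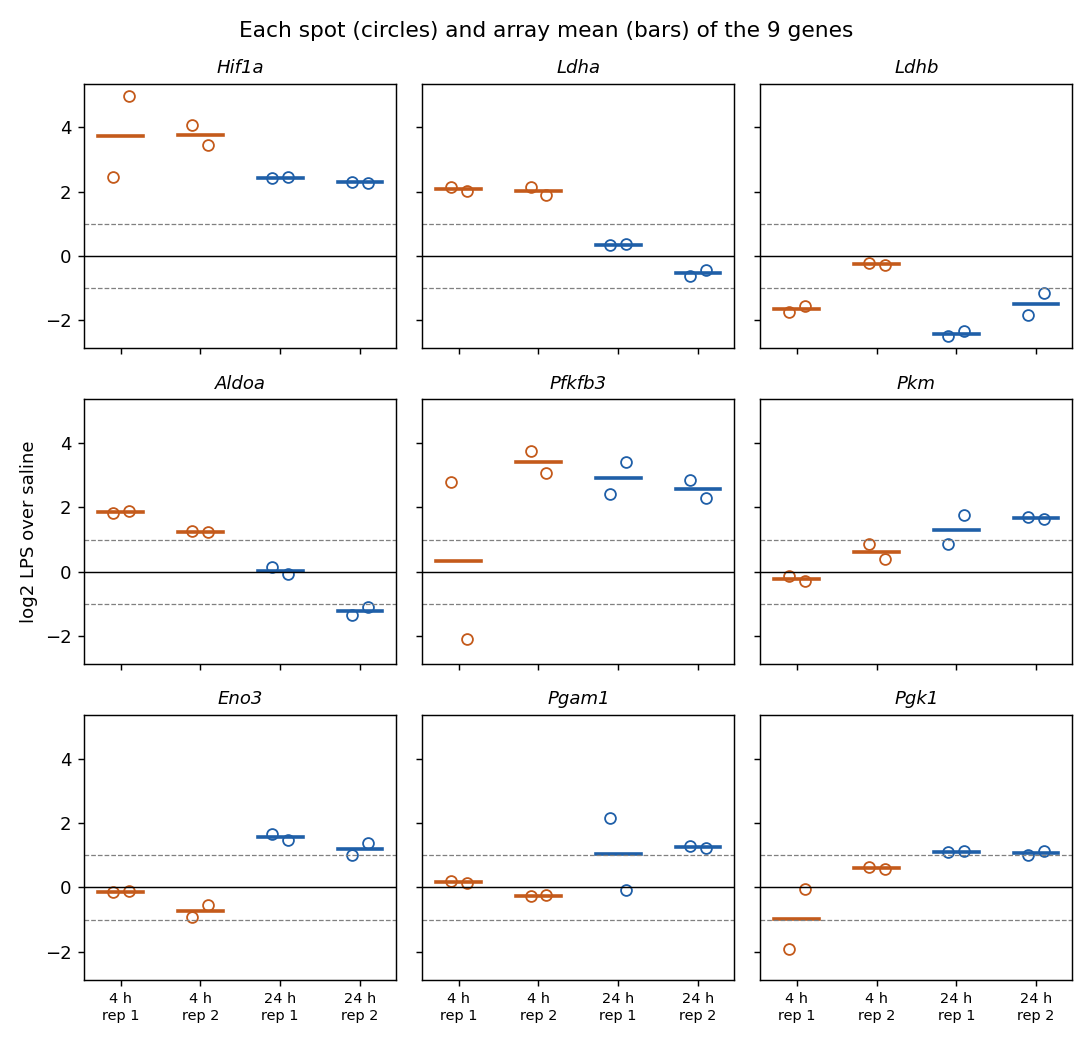
Log2 LPS over saline ratio of each spot (circles) and the mean of the 2 spots (bars) on the 4 arrays, for each of the 9 genes, with dashed lines at 2-fold. Hif1a lies above 2-fold in all 8 spots, Ldha and Aldoa lie above it at 4 h alone, and spot pairs lie far apart on replicate 1 for Pfkfb3, Hif1a (by 2.52) and Pgk1 (by 1.86) at 4 h and for Pgam1 at 24 h.

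Hif1a was higher in LPS at both times. At 4 h its ratio was 3.73 on replicate 1 and 3.76 on replicate 2, a mean of 3.75 ± 0.025, or 13.4-fold. Scale normalization moved this mean to 4.82, or 28.3-fold. The spots behind these means lay further apart than the means, at 2.47 and 4.99 on replicate 1 and at 4.06 and 3.46 on replicate 2. The gap of 2.52 between the spots of replicate 1 was exceeded by 13.2% of all oligonucleotides on that array, so the small SD of the array means understates the error. At 24 h all 4 spots lay close together, at 2.44 and 2.44 on replicate 1 and 2.31 and 2.28 on replicate 2. Their mean was 2.37 ± 0.10, or 5.17-fold. Scale normalization moved the mean of 24 h to 1.86, so the gap between the times was wider with it. All 4 spots of 24 h lay below all 4 of 4 h, the nearest being 2.44 and 2.47, and the array means of the times differed by -1.38.

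The lactate dehydrogenase subunits went opposite ways and at different times. Ldha encodes the M subunit, known to favour conversion of pyruvate to lactate, and Ldhb the H subunit, abundant in heart muscle and known to favour the reverse. Ldha at 4 h stood at 2.09 on replicate 1 and 2.03 on replicate 2, a mean of 2.06 ± 0.041, or 4.17-fold, and scale normalization moved the mean to 2.65. Its 4 spots ran from 1.91 to 2.16, so that spots and arrays gave the same size. At 24 h Ldha stood at 0.36 and -0.52, on both sides of 0, and its mean of -0.082 ± 0.62 was within the array error.

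Ldhb at 24 h stood at -2.41 on replicate 1 and -1.49 on replicate 2, a mean of -1.95 ± 0.65, or 0.259 of the saline level. All 4 of its spots were more than 2-fold lower, from -2.50 to -1.15. At 4 h Ldhb was 2-fold lower on replicate 1 only, at -1.65, and stood at -0.24 on replicate 2, which left it uncalled at -0.94 ± 1.00. The 2 spots of those arrays were at most 0.16 apart, so the arrays of 4 h differed by more than the spots did. Ldhc, the testis isoenzyme, stood at -0.13 ± 0.25 at 4 h and -0.24 ± 0.20 at 24 h and was not called.

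Aldoa, the aldolase that splits fructose-1,6-bisphosphate into triose phosphates, was higher at 4 h with Ldha. Its array values were 1.86 on replicate 1 and 1.24 on replicate 2, a mean of 1.55 ± 0.44, or 2.93-fold. The spots of an array were at most 0.072 apart, and all 4 spots were above 2-fold. At 24 h it stood at 0.036 on replicate 1 and -1.23 on replicate 2, which was 2-fold lower on that array alone. The brain-enriched aldolase Aldoc stood at 0.017 ± 0.067 at 4 h and -0.60 ± 0.22 at 24 h.

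Pfkfb3 makes fructose-2,6-bisphosphate, the allosteric activator of phosphofructokinase. At 24 h it had the highest ratio of the 9 genes, 2.92 on replicate 1 and 2.57 on replicate 2, a mean of 2.75 ± 0.24 or 6.71-fold. Scale normalization moved this mean to 2.15. All 4 spots were above 2-fold, from 2.29 to 3.40. At 4 h the arrays gave 0.35 and 3.40, and Pfkfb3 was not called at 1.87 ± 2.16. The replicate 1 value was the mean of spots at 2.80 and -2.10, a gap that only 4.91% of oligonucleotides exceeded on that array. The other 3 spots of 4 h lay between 2.80 and 3.75, so 1 spot of 4 set the missed call.

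Pkm, Eno3, Pgk1 and Pgam1, of the lower, ATP-yielding part of glycolysis, were called higher at 24 h and were not called at 4 h. Gapdh, Gapdhs, Pgk2, Pgam2, Eno2 and Pklr, of the same part, were not called at either time. Pkm, pyruvate kinase, which makes pyruvate in the last step, stood at 1.31 and 1.67 at 24 h, a mean of 1.49 ± 0.25 or 2.81-fold. Of its 4 spots 1 was under 2-fold, at 0.88, and the others ran from 1.65 to 1.75. At 4 h Pkm stood at -0.21 and 0.63. The sources used here do not say which of its splice forms the oligonucleotide matches.

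Eno3, the muscle-enriched enolase, stood at 1.56 and 1.19 at 24 h, a mean of 1.37 ± 0.26 or 2.59-fold, with spots from 1.00 to 1.65. At 4 h it lay below 0 on both arrays, at -0.13 and -0.74. Pgk1, phosphoglycerate kinase, the first ATP-yielding step, stood at 1.11 and 1.08 at 24 h, a mean of 1.09 ± 0.026 or 2.14-fold, with 4 spots from 1.01 to 1.14. Every spot of Eno3 and Pgk1 at 24 h was thus at or above 2-fold. The arrays of 4 h gave -0.97 and 0.59 for Pgk1, with spots 1.86 apart on replicate 1.

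Pgam1, phosphoglycerate mutase, rested on less agreement. Its arrays gave 1.04 and 1.26 at 24 h, a mean of 1.15 ± 0.16 or 2.22-fold. The spots of replicate 1 were 2.15 and -0.076, and those of replicate 2 were 1.28 and 1.24, so 3 of 4 spots were above 2-fold. At 4 h its 4 spots ran from -0.26 to 0.21. Pgam1 and Pgk1 were the members nearest the threshold, with their smaller array value at 1.04 and 1.08. The nearest glycolytic enzymes outside it were Pfkp, a phosphofructokinase, at 4 h (smaller array value 0.71) and Gapdhs, the sperm isoform of glyceraldehyde-3-phosphate dehydrogenase, at 24 h (smaller array value 0.48 below 0).

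When a 2-fold ratio was asked of each spot on both arrays, Hif1a, Ldha and Aldoa were still called higher at 4 h, against 1.25% of all genes higher and 0.323% lower. At 24 h Hif1a, Pfkfb3, Eno3 and Pgk1 were called higher and Ldhb lower, against 1.87% and 1.78%, and Pkm and Pgam1 were not called. The calls of Eno3, Pgam1 and Pgk1 at 24 h depended on the scaling between arrays, and that of Pkm did not. With scale normalization the 3 genes had means of 1.07, 0.90 and 0.86 and were not called. With quantile normalization they had means of 1.31, 0.99 and 0.96 and were not called either.

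**Figure D3:**
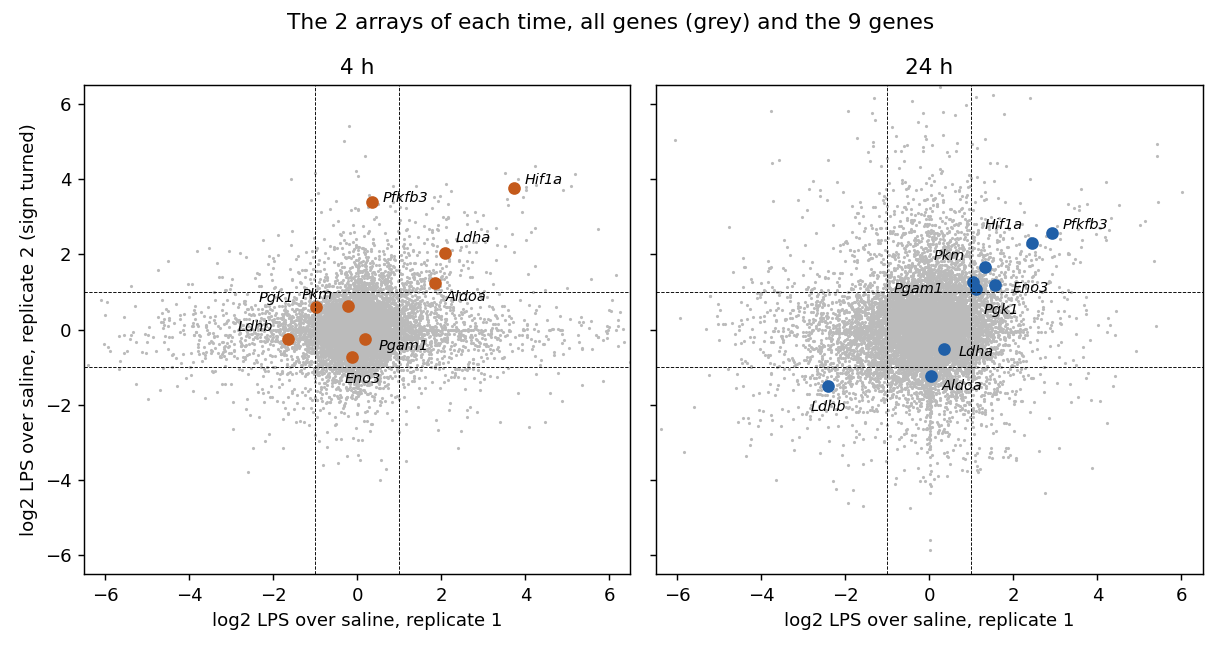
Log2 LPS over saline ratio on replicate 2 (sign turned) against replicate 1 at each time, for all 11138 genes (grey) and the 9 genes (coloured), with dashed lines at 2-fold. Hif1a lies near the diagonal at both times and Pfkfb3 far from it at 4 h, and 28 genes lie outside the plotted range on at least 1 array.

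The times were set against each other by asking whether the arrays of the times did not overlap and their means were at least 1 log2 unit apart. By this rule Pkm, Eno3, Pgam1 and Pgk1 were higher at 24 h than at 4 h, by 1.28, 1.80, 1.19 and 1.28, where 9.43% of all genes were. Hif1a, Ldha and Aldoa were lower at 24 h than at 4 h, by -1.38, -2.14 and -2.14, where 10.3% of all genes were. Ldhb and Pfkfb3, with differences of -1.01 and 0.87, had overlapping arrays. All spots of the times were apart for Hif1a, Ldha, Aldoa, Pkm, Eno3 and Pgk1, and for Pgam1 they overlapped. With scale normalization only Hif1a, Ldha, Aldoa and Eno3 of the 9 genes were apart, and with quantile normalization all of the 7 but Pgk1. Over all genes 2057 were apart with scale and 2144 with quantile normalization, beside 2201 in the main setting. These times differ in the arrays used, and the genes were chosen on both.

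Of 26 glycolytic enzyme genes listed, 20 were measured, and the list's median lay close to that of all genes. It was -0.011 at 4 h and -0.072 at 24 h, beside -0.016 and -0.021 over all genes. The 7 enzymes described above were the ones called, 2 higher at 4 h, and 4 higher and 1 lower at 24 h. Over all genes, 2.25% were called higher and 0.997% lower at 4 h, and 3.48% higher and 3.52% lower at 24 h. The 7 enzymes were chosen for their ratios, so nothing is read from these counts. The 13 others were not called at either time. Pfkp stood at 1.26 ± 0.77 at 4 h and -0.37 ± 1.40 at 24 h, and Gapdh, the glyceraldehyde-3-phosphate dehydrogenase often used as a reference gene, at 0.15 ± 0.27 and 0.91 ± 1.09. Pklr, the liver and red cell pyruvate kinase, stood at 0.76 ± 1.85 at 24 h with arrays of opposite sign, and Gapdhs at -0.82 ± 0.48. The paralogues of the called enzymes, Pgk2, Pgam2 and Eno2, stood at -0.32 ± 0.71, 0.012 ± 0.041 and -0.32 ± 1.07 at 24 h. The sequences of the oligonucleotides were not used here, so hybridisation of a related transcript to a called enzyme was not tested.

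**Figure D4:**
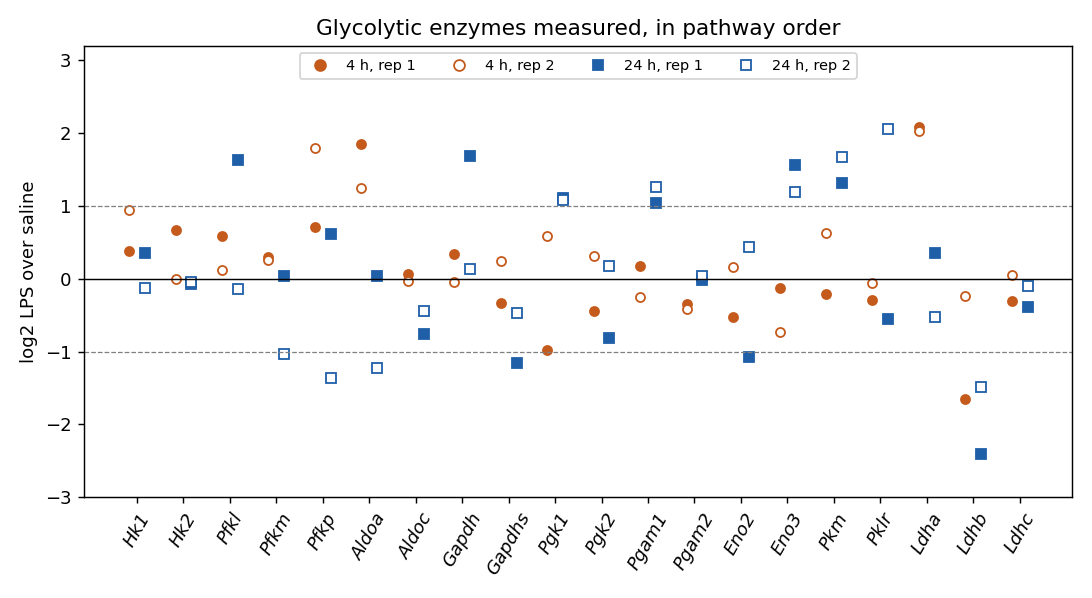
Log2 LPS over saline ratio of the 20 glycolytic enzyme genes measured, in pathway order from glucose to lactate, with orange circles for the arrays of 4 h and blue squares for those of 24 h. Filled symbols are replicate 1 and open symbols replicate 2, and dashed lines mark 2-fold. Both symbols of a time lie beyond the same dashed line for Aldoa and Ldha at 4 h and for Pgk1, Pgam1, Eno3, Pkm and Ldhb at 24 h.

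Of 18 listed regulators of flux and carriers of glucose and lactate, 15 were measured. Pfkfb3 was the 1 called, higher at 24 h, where 3.48% of all genes were. With 15 genes, and Pfkfb3 chosen for its ratio, nothing is read from this count. Its relative Pfkfb2, the heart isoform, stood at 0.40 ± 0.28 at 4 h and -1.13 ± 1.08 at 24 h. The glucose transporter Slc2a1, a HIF-1 target, stood at 1.60 ± 1.97 at 4 h, with replicate 2 at only 0.21, and at -0.55 ± 0.19 at 24 h. The lactate exporter Slc16a3 stood at -1.65 ± 1.39 at 4 h and -0.26 ± 0.26 at 24 h, and the insulin-responsive glucose transporter Slc2a4 at -0.30 ± 0.26 and -0.76 ± 0.45. For the list, the median was 0.029 at 4 h and -0.068 at 24 h.

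Pyruvate entry to mitochondria was measured by 8 of 14 listed genes, of which 0 were called at 4 h and 2 were higher at 24 h. Of all genes, 2.25% were higher and 0.997% lower at 4 h, and 3.48% were higher at 24 h. With 8 genes nothing is read from these counts. Pdk4, a kinase that switches off pyruvate dehydrogenase, stood at -0.21 ± 0.20 at 4 h and at 1.29 ± 0.073 at 24 h. Dld, the dihydrolipoyl dehydrogenase subunit of that complex, stood at 0.16 ± 0.39 and 1.16 ± 0.16. The list's median was 0.063 at 4 h and 0.40 at 24 h. Among its uncalled genes, the pyruvate carrier subunit Mpc1 stood at 0.98 ± 0.38 at 24 h, Dlat at 0.82 ± 1.40 and pyruvate carboxylase (Pcx) at -0.78 ± 0.49. Pdk2, another kinase of the complex, stood at 0.011 and 3.21 on the arrays of 4 h.

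Among HIF subunits and oxygen sensors, 14 of 18 listed genes were measured. Of all genes, 2.25% were called higher at 4 h, and 3.48% higher and 3.52% lower at 24 h. With 14 genes nothing is read from the counts of this list. Beside Hif1a, 1 gene was called at 4 h. Hif1an, the asparaginyl hydroxylase that blocks HIF-1 activity when oxygen is ample, stood at 6.15 on replicate 1 and 1.45 on replicate 2, a mean of 3.80 ± 3.32, and was not 2-fold in every spot. At 24 h it stood at -0.33 ± 0.22. Hif3a, a family member whose short forms act as inhibitors, stood at -0.048 ± 0.30 at 4 h and was lower at 24 h, at -1.13 ± 0.019. Arnt, the partner of Hif1a, was not called, at -0.60 ± 0.37 and -0.30 ± 2.25, nor was Epas1, the HIF-2 subunit abundant in endothelium, at -0.35 ± 0.10 and -0.78 ± 0.77. The list's median was 0.19 at 4 h and -0.088 at 24 h. Arnt2 stood at -0.87 ± 0.77 at 24 h, and the ubiquitin ligase subunit Elob at 2.34 ± 2.68 at 4 h.

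Of 32 listed hypoxia targets outside glycolysis, 26 were measured. At 4 h 0 were called, where 2.25% of all genes were called higher. At 24 h 0 were called higher, where 3.48% of all genes were, and Nos2, inducible nitric oxide synthase, was lower at -3.50 ± 1.49. With 26 genes these counts are near the background, and nothing is read from them. Their median was 0.048 at 4 h and -0.012 at 24 h. Higd1a, a hypoxia-induced mitochondrial protein, stood at 1.61 and 0.84 on the arrays of 24 h, and the repressor Mxi1 stood at -1.02 ± 0.45 at 4 h. Ddit4, an inhibitor of mTOR signalling, stood at -3.84 and 1.83 on the arrays of 24 h, and Bhlhe40 at -0.87 ± 0.97.

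In the pentose phosphate and glycogen pathways, 12 of 16 listed genes were measured and 0 were called at 4 h. The shares over all genes were 2.25% higher and 0.997% lower at 4 h, and 3.48% and 3.52% at 24 h. With 12 genes nothing is read from the counts. At 24 h Rpia, ribose-5-phosphate isomerase, was higher at 1.13 ± 0.11 and Gbe1, the glycogen branching enzyme, lower at -1.94 ± 0.60. Pygm, muscle glycogen phosphorylase, stood at -1.06 ± 0.33 and missed the call by 1 array at -0.82, and transketolase (Tkt) stood at -2.05 ± 2.24 at 4 h. Pgls and Pgd stood at -1.34 ± 2.09 and 0.86 ± 0.92 at 24 h. The median of the list was 0.040 at 4 h and -0.027 at 24 h. Across the 6 pathway lists, 95 genes were measured, and without the 9 chosen genes 1 of 86 was called higher and 0 lower at 4 h, and 3 higher and 3 lower at 24 h. That remainder lacks the genes taken out because they were called, so its share cannot be read as that of the pathways.

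The genes whose 4 array ratios lay nearest to those of Hif1a, by Euclidean distance in log2 units among 11137 other genes, were Casp4, Gbp8, Tlr2, Cxcl1 and Ccl2. Casp4, a caspase activated by LPS inside the cell, was nearest at 0.49, with 4.02 and 3.80 at 4 h and 2.60 and 1.94 at 24 h. The interferon-induced GTPase Gbp8 lay at 1.08, the lipoprotein receptor Tlr2 at 1.16, the neutrophil attractant Cxcl1 at 1.32 and the monocyte attractant Ccl2 at 1.40. All 5 were called higher at both times, as Hif1a was, which largely follows from their choice by nearness to it. For Ldha the nearest were Bag4 at 0.51, Tubb6 at 0.54, Wdr45b at 0.71, Niban1 at 0.77 and Rnf125 at 0.78, with means between 1.81 and 2.36 at 4 h and between -0.49 and 0.17 at 24 h. Distances over 4 arrays were not tested.

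Since Eno3, Pkm and Ldhb are abundant in muscle, and glycolytic enzymes in blood cells, markers of other cells are given beside them. Of all genes, 2.25% were called higher and 0.997% lower at 4 h, and 3.48% higher and 3.52% lower at 24 h. The marker lists, with the endothelial markers below, are short, and nothing is read from their counts. Of 24 cardiomyocyte markers 0 were called at 4 h, and at 24 h 0 were higher and Ryr2 was lower at -1.40 ± 0.11, with list medians of -0.14 and 0.19 on the arrays of 24 h. Of 16 neutrophil markers Lcn2 was higher at 4 h, and at 24 h Lcn2 (5.17 ± 0.34), S100a8 (2.58 ± 1.17), S100a9 (1.55 ± 0.084), Cd177 (2.38 ± 0.15) and Fpr2 (1.20 ± 0.078) were higher and Ngp (-1.62 ± 0.82) lower, with list medians of -0.50 and 0.27. Of 10 erythrocyte markers Klf1 was higher at 24 h at 2.01 ± 0.24 and Car1 lower at -1.75 ± 0.11. None of 18 monocyte and macrophage markers was called at either time. Lymphocyte markers held 1 call of 14 at 24 h, Cd5 at -2.00 ± 1.00, and fibroblast markers 1 of 11, Vim at 2.04 ± 0.48. Of 12 smooth muscle and pericyte markers, Actg2 was higher at 4 h at 2.18 ± 0.58 and lower at 24 h at -2.42 ± 1.47.

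Of 18 endothelial markers, Cldn5 was higher at 4 h at 1.29 ± 0.10, and Kdr at -1.89 ± 0.75 and Eng at -1.87 ± 0.84 were lower. At 24 h Eng at 3.91 ± 0.85, Kdr at 2.21 ± 0.48 and Cav1 at 1.15 ± 0.19 were higher, and Thbd was lower at -1.64 ± 0.70. The list medians on the arrays of 24 h were 0.41 and 0.37. The part of any of these cell types in the ratios of the 9 genes was not tested.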

How the data were processed

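The deposited table holds log2 ratios of 2 dyes for 32448 spots on each of 4 arrays, and each array has a median of 3e-07. The sources used here do not give background correction, dye normalization, spot filters or the numerator of the ratio. Per the labels, LPS RNA was in Cy5 on replicate 1 and in Cy3 on replicate 2 of each time. Between 10.2% and 13.4% of spots per array have a ratio of exactly 1, and whether these were measured is unknown. No intensities were used, and the small number of arrays limits precision.

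The platform annotation named 1 gene for 24344 spots (75.0%), several for 98, and did not list 8006. Of the named spots 24076 matched RefSeq (GRCm38.p6), which changed 0 symbols. The sign of replicate 2 was turned, the 2 spots of an oligonucleotide and then the oligonucleotides of a gene were averaged, and the median over genes was subtracted from each array. Over all spots the 2 spots of an oligonucleotide correlated at 0.19 to 0.32 within an array.

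The members and gene lists were chosen with earlier results of these data known. Named genes are the 9 members, every called gene of 6 pathway and 8 marker lists, up to 4 further genes of a pathway list by the largest mean of a time, and the 5 genes nearest to Hif1a and to Ldha. Outside this rule, Ldhc, Aldoc, Pgk2, Pgam2 and Eno2, paralogues of the members, were named after their values were seen. No test was the main result, because each dye-reversed pair counts as 1 replicate. limma 3.58.1 (R 4.3.3) was run over all genes with the arrays as separate samples, as an alternative with Benjamini-Hochberg adjustment. The steps were run on simulated data with effects larger than those of the 9 genes and noise set below that of the arrays. That run cannot show how the rules perform at the effects and noise of these data. Tables were handled in Python 3.11.15 with pandas 2.3.3. Other alternatives were scaling between arrays, the spots required, medians over spots, ratios of exactly 1 left out, a 1.5-fold threshold, replicate 2 not turned, and 1 array alone.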

Additional observations from a re-analysis of the deposited data

Results flagged for a closer look

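For 16 of the 72 named genes, 12 of them called at either time and 4 not called, both arrays of 4 h lay on one side of 0 and both arrays of 24 h on the other. The share of all genes with this pattern was not counted. Many of the 72 were named for a call or a large mean, so nothing is read from the count. The difference between the times was not tested as the main comparison, because each time counts as 1 replicate. When limma took the arrays as separate samples, it gave 0 genes with a difference between the times at an adjusted p under 0.05. The smallest adjusted p was 0.80, and 638 of 11138 genes had an unadjusted limma p under 0.05. With no difference present, a share of about 0.05 of the genes would pass that unadjusted threshold. Among the 9 genes, the arrays of the times lay on opposite sides of 0 for Eno3. Its mean at 24 h minus that at 4 h was 1.80 (limma adjusted p = 0.80). In the metabolic lists it was also so for Pdk4 at 1.5, Gbe1 at -2.19, the uncalled genes Slc2a1 at -2.15, Pfkfb2 at -1.52, Bhlhe40 at -1.49 and Tkt at 2.80, and the HIF hydroxylase Hif1an at -4.13, the last resting on arrays of 4 h that differed widely. Among marker genes the difference was 5.77 for Eng, 4.10 for Kdr, 1.78 for Cav1, -1.96 for Cldn5, 2.71 for S100a8, 1.87 for S100a9 and -4.60 for Actg2. For Wdr45b, near Ldha in its ratios, it was -2.82. Some of these lay close to 0 at 4 h, such as S100a8 with a mean of -0.13.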

How the results depend on the processing

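The 3 calls of 4 h (Hif1a, Ldha, Aldoa) held under scale and quantile normalization and the every-spot rule. They also stood with medians over spots, ratios of 1 left out and 1.5-fold, which could hardly remove them. A median of 2 spots equals their mean, no spot of these genes at 4 h had a ratio of 1, and 1.5-fold is the looser threshold. At 24 h scale and quantile normalization each left 4 of the 7 calls (Hif1a, Pfkfb3, Pkm, Ldhb), and scale normalization left 4 of 7 genes apart between the times. If replicate 2 was already turned, 0 of the 9 were called at 4 h, 0 at 24 h and 0 were apart. The means of Hif1a at 4 h, Pkm at 24 h and Pgam1 at 24 h were then -0.018, -0.18 and -0.11. The loss of every call was fixed in advance, since the 9 genes were chosen for turned arrays on the same side of 0. limma called 0 of the 9 at 4 h and 0 at 24 h at an adjusted p under 0.05, in a fit that takes each dye pair as separate samples and on genes chosen by these ratios. From 1 array alone, 4 of the 9 were called at 4 h on either array and 7 to 8 at 24 h. Of all genes, 362 were called at 4 h and 780 at 24 h. With scale normalization there were 557 and 424, and with replicate 2 not turned 158 and 411. With quantile normalization there were 561 at 4 h (328 higher, 233 lower) against 251 higher and 111 lower, and 525 at 24 h. The every-spot rule gave 175 and 406, 1.5-fold 941 and 1808, limma 0 and 0 (475 and 1126 unadjusted), and 1 array alone 1414 to 2317 and 3239 to 3408. With no difference present, a share of about 0.05 of the 11138 genes would have an unadjusted p under 0.05. The unadjusted counts are therefore not counts of differing genes. Genes apart between the times numbered 2201, or 2057 with scale and 2144 with quantile normalization. They numbered 1298 with replicate 2 not turned and 1006 where every spot had to be apart. The cause of these shifts was not tested, other than that stricter rules call fewer genes. No paired analysis was possible because the labels carry no replicate numbers that tie arrays of the 2 times. The table holds no signal over background, which limits what can be said of weak spots.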
